A study of Mus musculus with 12 samples.

Results

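The 20 cytosolic aminoacyl-tRNA synthetase genes and 15 genes of the amino acid response were followed in mouse acute myeloid leukemia cells while the transcription factor PU.1 was restored. The 35 genes were taken from a fixed list of symbols among 27179 genes in each count file. That choice was made with earlier results of these data known. The list holds 20 synthetases, 4 regulators and response genes (Atf4, Atf5, Chac1 and Trib3), 6 enzymes of amino acid synthesis (Asns, Phgdh, Psat1, Psph, Aldh18a1 and Pycr1) and 5 transporter genes (Slc7a1, Slc7a5, Slc7a11, Slc3a2 and Slc1a5). All 35 had a row in the files and all 35 passed the filter on low counts.

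AML246 is a leukemia of C57BL/6 background that is cytogenetically normal, p53-/- and carries a hairpin against PU.1 (shPU.1) linked to GFP, so every group shares the p53 deletion and the hairpin. Cells were sorted by GFP from the bone marrow of leukemic recipients, in 12 libraries of 3 per group. Untreated cells were GFPhigh, and mice given doxycycline (Dox), which switches the hairpin off, gave GFPhigh-mid cells after 2 days, GFPmid cells after 4 days and GFPlow cells after 6 days. The gate, the time on Dox and PU.1 restoration cannot be told apart, all cells come from 1 leukemia, and no group received Dox without the hairpin. The titles call the replicates technical while the design text speaks of mice, so p-values measure the spread between these libraries, which may be technical.

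Aminoacyl-tRNA synthetases load each amino acid onto its tRNA and so supply the ribosome. When amino acids run short, uncharged tRNA activates the kinase GCN2 (Eif2ak4), which phosphorylates the initiation factor eIF2, and the transcription factor ATF4 is then translated more. ATF4 binds a short C/EBP-ATF response element and drives genes for amino acid synthesis and import, several synthetases, the feedback gene Trib3, and Chac1. Because ATF4 is controlled mainly in translation, its transcript level need not follow its activity.

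The element was searched as TGATGNAA on both strands in RefSeq promoters of GRCm38.p6, which cover 250 bases before to 50 after each start, and 26 of the 35 genes had an entry. It was found in 10 of these 26 genes (38.5%), compared with 4.51% of 27025 genes with a promoter. For comparison, the E-box CACGTG was found in 5 of the 26 (19.2%) and in 8.09% of all genes. The list was drawn up around the response that ATF4 drives, so the share with its element is not independent of that choice. The genes with a promoter were not limited to those that passed the filter on low counts, and these differences were not tested. The 7 genes with a match upstream of the start are shown in the direction of the gene, with the matches in capitals, because they include genes that later rose, fell and did not pass the test.
Chac1, chr2:119351023-119351082, plus strand: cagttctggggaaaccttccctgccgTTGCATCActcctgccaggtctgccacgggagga
Slc7a11, chr3:50443627-50443705, minus strand: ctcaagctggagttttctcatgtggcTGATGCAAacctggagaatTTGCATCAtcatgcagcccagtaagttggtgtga
Asns, chr6:7693210-7693258, minus strand: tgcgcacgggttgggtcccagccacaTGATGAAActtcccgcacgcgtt
Pycr1, chr11:120643818-120643877, minus strand: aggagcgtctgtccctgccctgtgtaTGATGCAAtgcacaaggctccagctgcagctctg
Tars, chr15:11399659-11399699, minus strand: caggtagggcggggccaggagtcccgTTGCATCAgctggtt
Aars, chr8:111033704-111033763, plus strand: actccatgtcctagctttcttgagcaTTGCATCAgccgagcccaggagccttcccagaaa
Gars, chr6:55037945-55038000, plus strand: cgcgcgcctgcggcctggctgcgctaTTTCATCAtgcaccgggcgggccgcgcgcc
The match began 193 bases before the start in Chac1, 66 and 47 in Slc7a11, 23 in Asns, 103 in Pycr1, 15 in Tars, 112 in Aars and 30 in Gars. Iars, Yars and Trib3 held a match only after the start, and Slc7a11 was the one of the 26 searched with 2 matches upstream. A match describes these letters and is not a measured site.

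The libraries held 4918920 to 7356166 counts, so that 3 reads amounted to 0.393 to 0.640 CPM, a limit that covers counting error only (CPM is TMM-scaled here). Spi1, which encodes PU.1, rose with time, with 54.2 to 67.5 CPM untreated, 98.8 to 123 CPM on day 2, 244 to 269 CPM on day 4 and 438 to 497 CPM on day 6. Trp53, the deleted gene, had 41.5 to 45.0 CPM untreated and 14.0 to 17.2 CPM at day 6, and since reads are summed per gene, these counts do not check the deletion. All 8 markers of leukemic myeloid cells were detected in each group, and they summed to 24060 to 27960 CPM untreated and 9900 to 12890 CPM at day 6, with 4 of them higher and 4 lower. Summed erythroid markers were 128 to 215 CPM untreated and 61.2 to 173 CPM at day 6 (Hba-a1 was at 0 there), and megakaryocyte markers 1.01 to 2.41 and 4.02 to 6.82 CPM. Summed markers of T and NK cells were 0.759 to 5.08 CPM in 11 libraries and 25.7 CPM in day 6 replicate 2, those of B and plasma cells were 18.9 to 35.2 CPM untreated and 2.15 to 3.63 CPM at day 6, and those of stroma were 86.7 to 129 CPM untreated and 20.9 to 27.1 CPM at day 6. The part of these markers in the results was not tested. Day 6 replicate 2 stood apart: its counts varied 44.1 and 38.4 times more than counting error against replicates 1 and 3, compared with 2.62 to 10.5 for all other pairs within a group. It was the highest of the day 6 libraries for 30 of the 35 genes, and untreated replicate 2 was the highest untreated library for 31.

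At day 6, 24 of the 35 genes were lower than in untreated cells and 3 were higher (edgeR quasi-likelihood test, Benjamini-Hochberg adjusted p under 0.05 over 12057 genes). Among all genes tested 32.9% were lower and 35% higher. The share of the 35 that were lower was 68.6%, and their median log2 fold change was -0.62 beside -0.00 over all genes. The lower genes were 15 of 20 synthetases, 5 of 6 synthesis enzymes and 4 of 5 transporters, and the 3 higher genes were Chac1, Trib3 and Slc7a11. Leaving out day 6 replicate 2 gave 27 lower genes (34.9% of all genes) and leaving out untreated replicate 2 gave 21 (30.8%). In both cases 3 genes were higher. With library totals as the scaling, the all-gene median moved by -0.52 on the log2 scale, and this gave 32 lower and 3 higher genes beside 56.1% of all genes lower, and relative to that shift the median of the 35 was -0.60.

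Change appeared in steps. At day 2, 0 of 35 genes passed the edgeR test (1.05% of all genes were higher and 0.406% lower), with 2 genes lower at an unadjusted p under 0.05, and DESeq2 and limma voom also called 0. All 20 synthetases had a fitted value below untreated at day 2, with a median log2 fold change of -0.12, but this rested on untreated replicate 2: without it 11 of 20 were below and the median was -0.014. At day 4, 14 of 35 were lower, compared with 20.2% of all genes, and 0 were higher by edgeR, compared with 22.1%, with 1 gene higher at an unadjusted p under 0.05 and 0 higher by DESeq2 or limma voom. The count at day 4 dropped to 9 without untreated replicate 2 and to 9 without day 4 replicate 3, beside 16.3% and 14.1% of all genes. From day 4 to day 6, 18 genes were lower (22.6% of all genes) and 4 were higher (23.6%). From day 2 to day 4, 9 were lower (10.2%) and 1 was higher (15.0%). The 9 became 4, 2 and 1 without day 2 replicates 2, 1 and 3, where 6.93%, 5.99% and 5.97% of all genes were lower. The count was 1 and 2 without day 4 replicates 2 and 3 (4.85% and 5.21% of all genes), and 14 without day 6 replicate 2 (15.8%). These comparisons share libraries, so their counts are not independent.

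**Figure D1:**
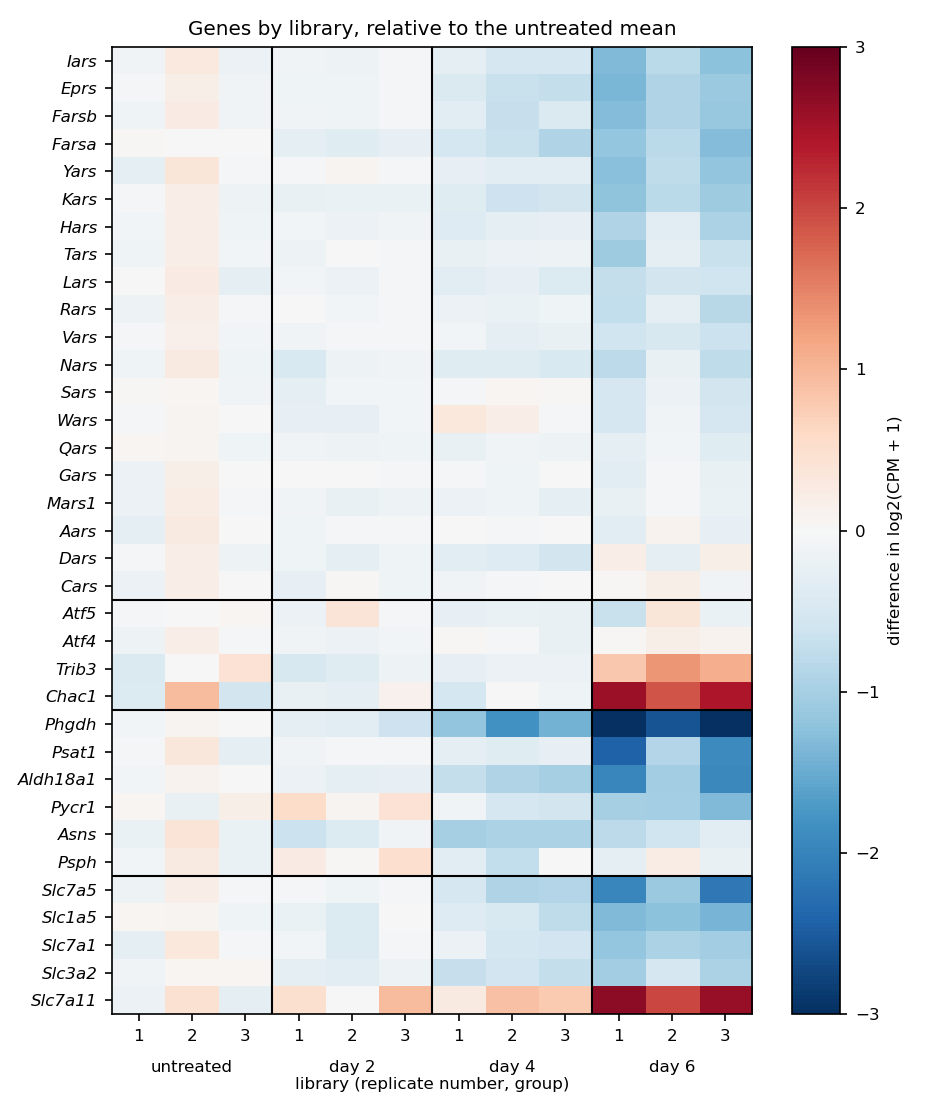
Difference of each of the 35 genes (rows, grouped as synthetases, regulators and response genes, synthesis enzymes and transporters) from its untreated mean, in log2(CPM + 1), in each of the 12 libraries (columns, by group and replicate). Most rows turn blue towards day 6, Chac1, Trib3 and Slc7a11 turn red there, and day 6 replicate 2 is the paler day 6 column in most rows.

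The summed level of the 20 synthetases was 2633, 3192 and 2608 CPM in untreated replicates 1, 2 and 3 and 1789, 2116 and 1830 CPM at day 6. The day 6 libraries all lay below the untreated ones, and the means were 2811 ± 330.3 and 1912 ± 178 CPM (SD, n = 3). At day 2 the sum was 2563 ± 52.0 and at day 4 it was 2267 ± 85.1 CPM. In bulk samples, fewer cells of a type and less RNA per cell cannot be told apart.

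The 4 synthetases with the lowest fold changes at day 6 were Iars, Eprs, Farsb and Farsa. Iars (ID 105148, chromosome 13, 49682130 to 49734267), the isoleucine enzyme, had 105, 139 and 99.8 CPM in untreated replicates 1 to 3 and 44.6, 64.3 and 47.4 CPM at day 6, with 91.5, 79.0 and 79.9 CPM at day 4. All 3 day 6 libraries lay below all day 4 libraries, and these below all untreated ones, and the fall reached -1.13 ± 0.15 at day 6 (log2 fold change ± SE; edgeR adjusted p = 2.75e-05). Its fall at day 4 (edgeR adjusted p = 0.0237) was lost without untreated replicate 2 (0.115) or day 4 replicates 2 (0.0886) or 3 (0.0796).

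Eprs (ID 107508, chromosome 1, 185361417 to 185428360), which joins glutamate and proline to their tRNAs, had 269, 317 and 261 CPM untreated, 206, 177 and 170.1 CPM at day 4 and 109, 149 and 129 CPM at day 6. The groups did not overlap, and Eprs fell by 1.13 ± 0.12 on the log2 scale at day 6 (edgeR adjusted p = 4.47e-06). Farsa (ID 66590, chromosome 8) and Farsb (ID 23874, chromosome 1) encode the α and β subunits of the phenylalanine enzyme, which works as a tetramer of both. Farsa had 138, 134 and 134 CPM untreated and 59.9, 76.2 and 53.9 CPM at day 6. Farsb had 76.2, 98.1 and 76.6 CPM untreated and 33.3, 44.2 and 37.3 CPM at day 6. The subunit genes, on different chromosomes, had log2 fold changes of -1.09 ± 0.12 and -1.12 ± 0.13 at day 6 (edgeR adjusted p = 7.06e-06 and 1.04e-05), and both were also lower at day 4, by -0.70 and -0.50.

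The 4 synthetases with the highest fold changes were Cars, Dars, Aars and Mars1, and none passed the test at day 6 with all libraries and TMM scaling. Cars (ID 27267, chromosome 7), the cysteine enzyme, had 34.5, 45.0 and 38.8 CPM untreated and 39.9, 44.7 and 36.5 CPM at day 6. Aars (ID 234734, chromosome 8), the alanine enzyme, had 109, 161 and 134 CPM untreated and 107, 142 and 111 CPM at day 6. Mars1 (ID 216443, chromosome 10), the methionine enzyme, had 79.3, 106 and 85.9 CPM untreated and 76.1, 86.2 and 77.5 CPM at day 6. In each of these 3 genes the untreated and day 6 libraries overlapped, with log2 fold changes of 0.04, -0.16 and -0.17. Aars was lower without day 6 replicate 2 (-0.30, edgeR adjusted p = 0.0408), and with upper-quartile scaling and library totals Aars (edgeR adjusted p = 0.0186 and 0.00154) and Mars1 (0.00333 and 1.71e-04) were lower too. The fitted value of Cars was -0.21 with upper-quartile scaling and -0.47 with library totals. Annotated spans of Aars and Ddx19b overlap by 3974 bases and those of Mars1 and Ddit3 by 71, so reads there may be shared. In all, 7 of the 35 genes overlap another protein-coding gene in this way, with 2332 bases for Farsb and Sgpp2. Atf5 overlaps Nup62 by 571 bases and Il4i1b by 289.

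Dars (ID 226414, chromosome 1, 128363707 to 128417416), the aspartate enzyme, dipped and returned. It had 256, 302 and 235 CPM untreated, 206, 199.7 and 178 CPM at day 4 and 303, 214 and 297 CPM at day 6. The day 4 libraries lay below both other groups. It was lower at day 4 (log2 fold change -0.44 ± 0.13, edgeR adjusted p = 0.0185), though not without untreated replicate 2 (0.0828) or day 4 replicate 3 (0.0784), and higher at day 6 than at day 4 (0.48 ± 0.13, edgeR adjusted p = 0.0117). Its day 6 value of 0.04 against untreated turned to -0.22 and -0.49 with upper-quartile scaling and library totals. The call of the step from day 4 was lost there too (edgeR adjusted p = 0.0541 and 0.632) and without day 6 replicate 1 (0.0523) or 3 (0.0501).

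Of the other 12 synthetases, 11 were lower at day 6, with log2 fold changes of all 12 from -1.08 to -0.20, and Gars, the glycine enzyme, did not pass (147, 187 and 164 CPM untreated, 131, 161 and 141 CPM at day 6). Gars was lower without day 6 replicate 2 (-0.29, edgeR adjusted p = 0.0156) or untreated replicate 1 (-0.28, 0.0331), and with upper-quartile scaling and library totals (0.00189 and 1.39e-04). At day 4, 2 of the 12 were lower, Kars and Lars. The day 4 and untreated libraries of Lars overlapped. Its day 4 call was lost without untreated replicates 1 (edgeR adjusted p = 0.0602) or 2 (0.114), or day 4 replicates 1 (0.0621) or 3 (0.0856). By the calls with all libraries, 6 synthetases (Eprs, Farsa, Farsb, Iars, Kars and Lars) were lower at both days and 9 (Hars, Nars, Qars, Rars, Sars, Tars, Vars, Wars and Yars) at day 6 only. Of the 9, Hars, Nars and Vars were also lower at day 4 without day 6 replicate 2, Nars without day 6 replicate 1 and Yars without untreated replicate 1. DESeq2 called Nars and Vars lower at day 4 (DESeq2 adjusted p = 0.0408 and 0.0440). Upper-quartile scaling did so for Hars, Nars, Qars, Vars and Yars, and library totals for Nars and Vars. Nars was also lower there with a replicate block, and Hars and Nars when only both groups were fitted. The difference between the 6 and the 9 was not tested. Wars, the tryptophan enzyme, known to be induced by interferon, had 65.8, 65.7 and 73.5 CPM at day 2, 97.1, 90.0 and 75.6 CPM at day 4 and 54.6, 72.5 and 55.2 CPM at day 6. It was the 1 gene of the 35 that was higher at day 4 than at day 2 (log2 fold change 0.36, edgeR adjusted p = 0.0487), a call lost under 9 of 12 single-library omissions, with upper-quartile scaling, library totals, no filter and a replicate block (edgeR adjusted p up to 0.277). It was lower at day 6 than untreated by -0.36 (edgeR adjusted p = 0.0191), not without untreated replicate 2 (0.0631), day 6 replicate 1 (0.0761) or day 6 replicate 3 (0.0772). Qars, the glutamine enzyme, had the smallest called change, -0.23 (edgeR adjusted p = 0.0375), which was lost under 6 omissions (0.0507 to 0.146), without a filter (0.0603) and when only both groups were fitted (0.0982).

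Of the 20 enzymes, 8 (Dars, Eprs, Iars, Kars, Lars, Mars1, Qars and Rars) belong to the multi-synthetase complex, a particle held together by scaffold proteins. Of these 8, 6 were lower at day 6 with a median of -0.63. Of the 12 free enzyme genes 9 were lower with a median of -0.58, beside 32.9% of all genes lower. With library totals all 8 and all 12 were lower, beside 56.1% of all genes. Of the 3 scaffold genes, Eef1e1 fell from 33.4 ± 5.47 to 16.7 ± 3.34 CPM and Aimp2 from 40.5 ± 8.41 to 25.1 ± 4.30 CPM, and Aimp1 did not pass.

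Levels of different genes were compared per gene length, as RPKM from the lengths in the files. In untreated cells the mean levels ran from 12.2 RPKM (Cars) to 105 RPKM (Dars), an 8.62-fold range. Dars, Kars (98.3 ± 12.7 RPKM) and Nars (85.6 ± 14.0 RPKM) were the 3 highest, and the Nars libraries lay above those of Farsa, the next in order, but overlapped those of Vars and Gars. Of 19 neighbouring pairs in the order, 16 had overlapping libraries. At day 6 Dars stood at 108 ± 19.9 RPKM, above all libraries of the next gene, Gars (60.3 ± 6.39 RPKM), and 18 of 19 pairs of neighbours overlapped. Kars had moved to 48.1 RPKM and Iars from 26.1 to 11.9 RPKM.

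**Figure D2:**
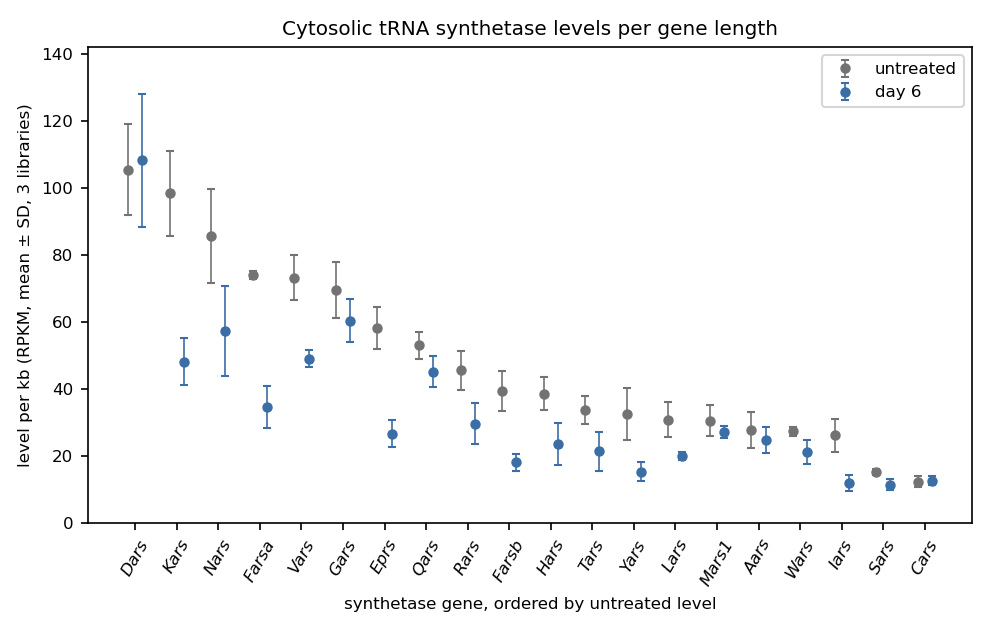
Level per gene length (RPKM, mean ± SD of 3 libraries) of the 20 synthetases in untreated and day 6 cells, ordered by the untreated level. Dars keeps the highest mean in both groups, at 105 and 108 RPKM, while Kars goes from 98.3 to 48.1 RPKM.

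Serine synthesis held the largest fall. Phgdh (ID 236539, chromosome 3, 98313171 to 98339969), the first and committed enzyme of serine synthesis from glycolysis, had 194, 219 and 208 CPM untreated, 171, 166 and 134 CPM at day 2, 90.8, 57.9 and 76.3 CPM at day 4 and 8.96, 33.6 and 11.3 CPM at day 6. No 2 consecutive groups overlapped, and each later group was lower. The day 6 level was 11.2-fold lower than untreated (log2 fold change -3.49 ± 0.38, edgeR adjusted p = 1.56e-05), and -4.35 without day 6 replicate 2.

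Psat1 (ID 107272, chromosome 19), the second enzyme of the pathway, had 142, 185 and 119 CPM untreated, 122, 113 and 123 CPM at day 4 and 26.4, 79.6 and 37.9 CPM at day 6. It did not pass at day 4 and fell at day 6 by 1.61 ± 0.31 on the log2 scale (edgeR adjusted p = 8.41e-04), or to -2.20 without day 6 replicate 2. Psph (ID 100678, chromosome 5), which completes serine synthesis, had 17.2, 22.4 and 15.9 CPM untreated and 14.7, 21.7 and 15.4 CPM at day 6. Its groups overlapped and the log2 fold change of -0.09 did not pass, though with library totals it was -0.59 (edgeR adjusted p = 0.0413). The 3 steps of this short pathway thus had values of -3.49, -1.61 and -0.09.

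Aldh18a1 and Pycr1 make proline from glutamate. Aldh18a1 (ID 56454, chromosome 19) had 90.8, 104 and 95.8 CPM untreated, 58.1, 51.3 and 48.0 CPM at day 4 and 24.3, 46.8 and 24.4 CPM at day 6. Each group lay below the one before, with log2 fold changes of -0.88 ± 0.19 at day 4 and -1.59 ± 0.20 at day 6 (edgeR adjusted p = 0.00298 and 2.08e-05). Pycr1 (ID 209027, chromosome 11) was scarce, with 84 counts in the untreated libraries together and 21 at day 6. It had 4.11, 3.20 and 4.60 CPM untreated and 1.49, 1.45 and 0.976 CPM at day 6, without overlap, and fell by 1.59 ± 0.32 (edgeR adjusted p = 6.97e-04).

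Asns (ID 27053, chromosome 6, 7675165 to 7693209), which makes asparagine and is a classic ATF4 target, reached its lowest level at day 4. It had 65.2, 98.8 and 64.8 CPM untreated, 37.1, 38.5 and 38.2 CPM at day 4 and 43.3, 49.0 and 59.7 CPM at day 6. Both later groups lay below the untreated libraries. The log2 fold change was -1.01 ± 0.18 at day 4 (edgeR adjusted p = 0.0010) and -0.59 ± 0.18 at day 6 (0.0124), and the step up between them did not pass (0.42, edgeR adjusted p = 0.0863). The day 6 call was lost without untreated replicate 2 (0.0671) or day 6 replicate 1 (0.0518).

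Of the 5 transporter genes, 4 fell and 1 rose. Slc7a5 (ID 20539, chromosome 8), the light chain of the leucine carrier LAT1, had 162, 206 and 171 CPM untreated, 125, 95.9 and 96.6 CPM at day 4 and 45.6, 82.3 and 39.8 CPM at day 6. The groups did not overlap and the day 6 log2 fold change was -1.68 ± 0.23 (edgeR adjusted p = 4.16e-05). Its day 4 fall (edgeR adjusted p = 0.0144) was lost without untreated replicate 2 (0.0541) or day 4 replicates 2 (0.0608) or 3 (0.0569). Slc1a5 (ID 20514, chromosome 7), the glutamine carrier ASCT2, had 122, 123 and 107 CPM untreated and 46.1, 48.9 and 44.1 CPM at day 6. The libraries were close together within both of these groups, and Slc1a5 fell by 1.34 ± 0.12 (edgeR adjusted p = 1.29e-06). Slc7a1 (ID 11987, chromosome 5), the carrier of arginine and other cationic amino acids, had 108, 162 and 127 CPM untreated and 58.0, 67.0 and 62.7 CPM at day 6 and fell by 1.08 ± 0.16 (edgeR adjusted p = 5.71e-05). At day 4 its call was lost without untreated replicates 2 (0.167) or 3 (0.0559), without day 4 replicates 2 (0.124) or 3 (0.129), and with a replicate block (0.0590).

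Slc3a2 and Slc7a11 went opposite ways although their proteins pair. Slc3a2 (ID 17254, chromosome 19) encodes the heavy chain shared by LAT1 and the cystine carrier, and had 137, 152 and 151 CPM untreated, 90.9, 97.5 and 88.4 CPM at day 4 and 70.8, 102 and 75.4 CPM at day 6. It fell by 0.82 ± 0.12 at day 6 (edgeR adjusted p = 7.78e-05). Slc7a11 (ID 26570, chromosome 3, 50364936 to 50499087) encodes xCT, the light chain that imports cystine for glutathione, and had 2.69, 4.73 and 2.44 CPM untreated, 4.86, 3.11 and 7.08 CPM at day 2, 4.05, 6.71 and 6.16 CPM at day 4 and 25.8, 15.8 and 24.4 CPM at day 6. The day 6 libraries lay above all others, and the rise was 6.61-fold (log2 fold change 2.72 ± 0.33, edgeR adjusted p = 1.35e-05). Without untreated replicate 2 it also passed at day 4 (1.13, edgeR adjusted p = 0.0404).

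Chac1 and Trib3 also rose late. Chac1 (ID 69065, chromosome 2, 119351242 to 119354326), an enzyme that degrades glutathione, had 0.425, 2.64 and 0.287 CPM untreated, 0.608, 0.549 and 1.05 CPM at day 2, 0.300, 0.875 and 0.734 CPM at day 4 and 10.2, 5.95 and 9.18 CPM at day 6. All day 6 libraries stood above all 9 others, on 132 counts at day 6 and 24 untreated. The log2 fold change was 2.88 ± 0.56 (edgeR adjusted p = 5.97e-04), and 4.48 without untreated replicate 2, which held most of the untreated counts. Trib3 (ID 228775, chromosome 2, 152337425 to 152344060), a pseudokinase that restrains ATF4, had 2.41, 3.62 and 5.17 CPM untreated, 2.85, 3.06 and 3.08 CPM at day 4 and 7.04, 10.4 and 8.79 CPM at day 6. The day 6 libraries again lay above all others, with a log2 fold change of 1.23 ± 0.27 (edgeR adjusted p = 0.0014).

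Transcripts of the factors themselves did not pass the test against untreated at any day with all libraries. Atf4 (ID 11911, chromosome 15) had 108, 136 and 116 CPM untreated, 122, 116 and 102 CPM at day 4 and 122, 136 and 129.6 CPM at day 6. The untreated libraries overlapped those of each later day, while all day 6 libraries lay above those of day 4 without passing the test (edgeR adjusted p = 0.134). Against untreated, Atf4 had a day 6 log2 fold change of 0.11 ± 0.10 (edgeR adjusted p = 0.363), which turned to -0.14 and -0.40 with upper-quartile scaling and library totals. Atf5 (ID 107503, chromosome 7), a related stress factor, had 34.2, 35.4 and 37.2 CPM untreated and 22.2, 46.1 and 30.7 CPM at day 6, with day 6 replicate 2 above the untreated libraries and the other two below them. Without that library Atf5 was lower (log2 fold change -0.43, edgeR adjusted p = 0.0328), as it was with library totals (-0.59, 0.0418).

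**Figure D3:**
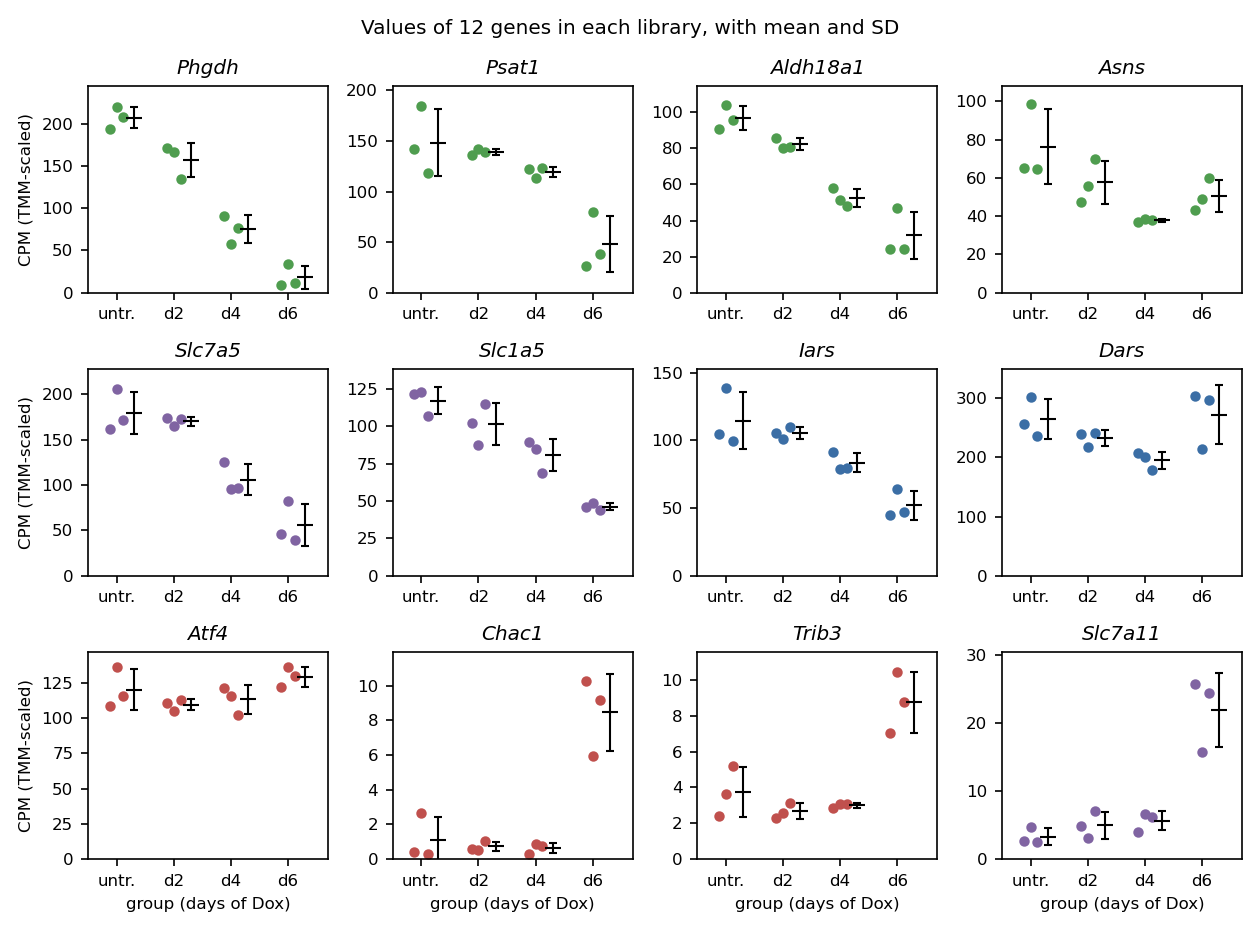
CPM of 12 genes in every library (points) with the group mean and SD (bars beside the points) in untreated cells and at days 2, 4 and 6, each panel from 0. Phgdh steps down from 194 to 219 CPM to 8.96 to 33.6 CPM, Dars dips at day 4, untreated Atf4 overlaps each later group, and Chac1, Trib3 and Slc7a11 stand apart at day 6; the SD bar of untreated Chac1 is clipped at 0.

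The 10 genes with the response element in the promoter went in different directions. Of these 10, 3 were higher at day 6 (Chac1, Trib3 and Slc7a11), 5 were lower (Iars, Tars, Yars, Asns and Pycr1) and 2 did not pass (Aars and Gars). Without day 6 replicate 2 the split was 3 higher and 7 lower. Of the 16 genes with a promoter entry and no match, 0 were higher, 11 were lower and 5 did not pass by edgeR. For comparison, 35% of all genes tested were higher at day 6 and 32.9% were lower. The difference between the 10 and the 16 genes was not tested. A promoter window of this length does not hold elements further away.

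**Figure D4:**
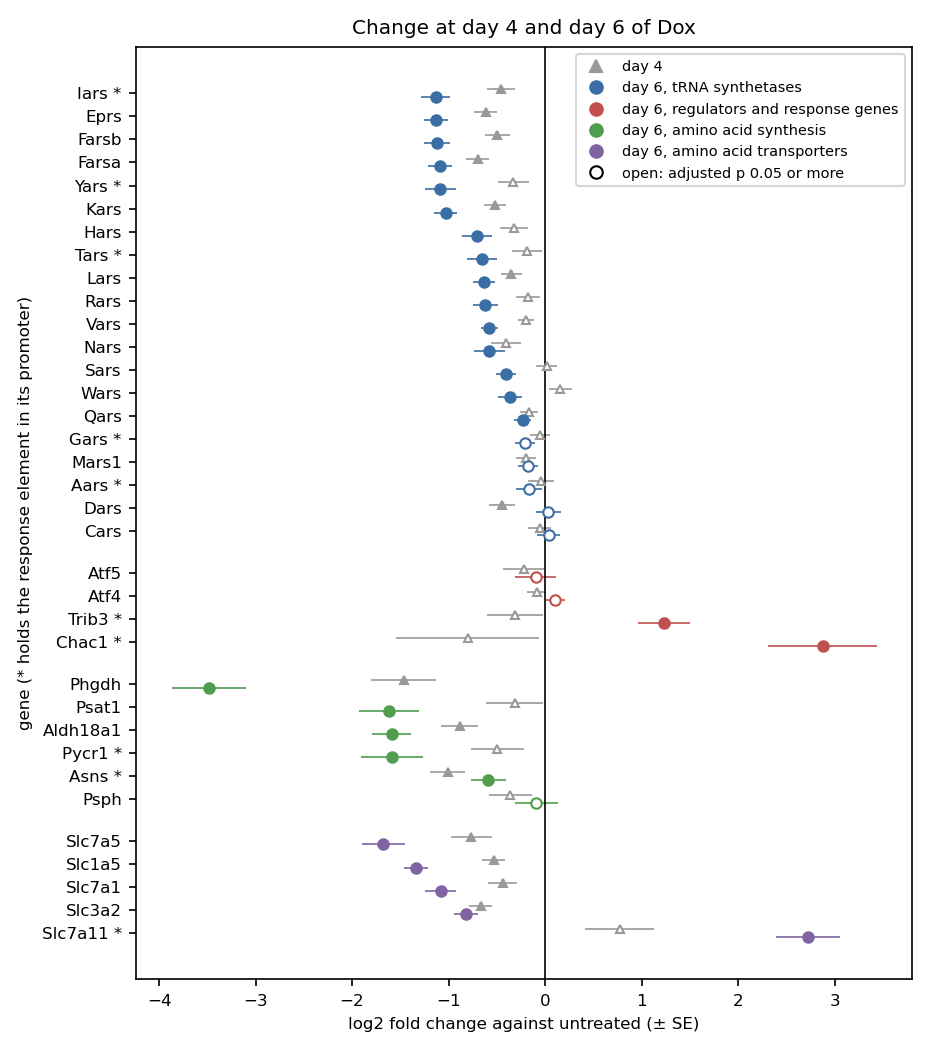
Log2 fold change against untreated with SE for each of the 35 genes at day 4 (triangles) and day 6 (circles, coloured by role), filled where the adjusted p was under 0.05; a star marks genes with the response element in the promoter window. The day 6 values run from -3.49 (Phgdh) to 2.88 (Chac1), and the 3 genes to the far right carry a star.

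The mitochondrial synthetases were lower at day 6 in 16 of 17 genes, beside 32.9% of all genes, with a median log2 fold change of -0.69. They charge tRNAs for proteins made inside mitochondria, and 10 of the 17 were already lower at day 4, beside 20.2% of all genes. The largest falls were those of Ears2 (13.7 ± 0.723 to 3.21 ± 1.66 CPM), Nars2 (19.5 ± 2.15 to 7.26 ± 1.82 CPM) and Vars2 (29.0 ± 5.82 to 11.6 ± 4.02 CPM), each given untreated and then at day 6 as mean ± SD (n = 3), as below.

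Genes of the eIF2 kinases, of eIF2 and of its feedback went both ways. Of these 9, 4 were higher and 4 lower at day 6, not far from the all-gene shares of 35% and 32.9%. Eif2ak2, the double-stranded RNA kinase PKR and an interferon target, rose from 101 ± 33.8 to 323 ± 45.7 CPM. Eif2ak4, the amino acid sensor GCN2, fell from 36.7 ± 4.39 to 19.7 ± 0.566 CPM, and Ppp1r15a, the stress-induced eIF2 phosphatase subunit, fell from 13.3 ± 1.81 to 4.71 ± 0.991 CPM. Of 18 further genes linked to ATF4, 13 passed the filter, 2 were higher and 5 were lower at day 6. Jdp2, a bZIP factor, rose from 9.54 ± 3.28 to 105 ± 31.9 CPM, and Slc6a9, a glycine carrier, fell from 3.60 ± 1.74 to 0.979 ± 0.294 CPM. Nars2, named above, and Gpt2, named below, stand in this list too.

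One-carbon and glycine enzymes, which use the serine that Phgdh helps to make, had 5 of 6 tested genes lower and 1 higher at day 6, with a median of -1.64. Shmt1 fell from 71.9 ± 8.62 to 16.2 ± 3.09 CPM, Mthfd1l from 109 ± 17.9 to 31.5 ± 5.70 CPM and Mthfd1 from 110.2 ± 9.79 to 32.4 ± 10.5 CPM. The higher gene, named after its values were seen, was Mthfd2, a mitochondrial folate enzyme and ATF4 target, which rose from 44.7 ± 11.1 to 74.7 ± 5.45 CPM, a call not kept with library totals. Among 14 enzymes of glutamate, proline and aspartate, 8 were lower and 1 was higher with a median of -0.33, beside 32.9% of all genes lower. With upper-quartile scaling 12 were lower and with library totals 13 (medians -0.58 and -0.85), where 44.1% and 56.1% of all genes were. Bcat1, a branched-chain aminotransferase, went from 69 counts in the untreated libraries to 6 at day 6. Gpt2 fell from 15.5 ± 3.15 to 7.51 ± 4.73 CPM and Pycrl from 35.1 ± 3.03 to 18.3 ± 4.85 CPM. The Gpt2 libraries overlapped, with untreated replicate 1 at 12.8 and day 6 replicate 2 at 12.9 CPM.

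The remaining amino acid transporters had 5 of 15 tested genes higher and 4 lower at day 6 with a median of 0.07, close to the all-gene shares of 35% and 32.9%. With library totals 3 were higher and 7 lower (median -0.44), beside 56.1% of all genes lower. Slc43a1 (LAT3) fell from 35.8 ± 0.779 to 6.09 ± 0.850 CPM and Slc7a6 from 57.1 ± 3.70 to 16.8 ± 6.48 CPM, while Slc16a10, a carrier of aromatic amino acids, rose from 14.2 ± 5.39 to 42.8 ± 13.2 CPM. Of 16 tested genes that report amino acids to the growth kinase mTORC1, 9 were higher and 3 lower, with a median of 0.45, but with library totals 3 were higher and 5 lower and the median was -0.066. Rragd, a lysosomal GTPase, went from 5 counts untreated to 62 at day 6, and Mlst8, an mTOR partner, rose from 23.6 ± 2.24 to 89.1 ± 23.2 CPM. Sesn3, a sestrin, fell from 13.0 ± 2.82 to 4.91 ± 1.71 CPM.

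**Figure D5:**
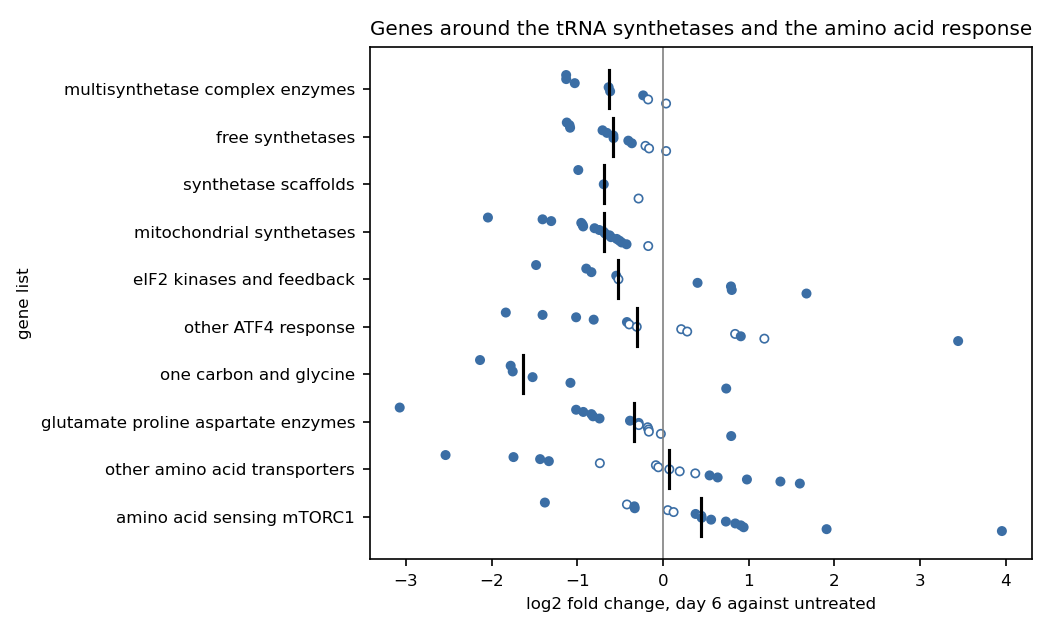
Log2 fold change at day 6 against untreated for the tested genes (points, filled where the adjusted p was under 0.05) of 10 lists around the synthetases and the amino acid response, with each list's median as a bar. The one-carbon list has the lowest median, -1.64, and the mTORC1 list the highest, 0.45, which library totals turn to -0.066.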

How the data were processed

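The authors deposited raw read counts per Entrez gene, with a gene length in bases, for 12 libraries. The submitters' processing notes list the mm10 build, featureCounts, CASAVA 1.8.2, limma 3.22.0 and edgeR 3.8.2 without steps. Aligner and strandedness: not given in the sources used here. Symbols came from the RefSeq annotation of GRCm38.p6 (25275 of 27179 identifiers). Genes kept by filterByExpr (12057) were scaled by TMM and fitted over 4 groups without a block in edgeR 4.0.16 (R 4.3.3; robust glmQLFit, 8 residual degrees of freedom), and SE is the log2 fold change divided by the root of F. RPKM used the deposited lengths. DESeq2 1.42.0, limma 3.58.1, other scalings, filters, a replicate block, fits of both groups alone and each library left out were alternatives, and all but the 2 other filters kept the tested genes. The procedure was tested on simulated data. The genes and lists were chosen with earlier results of these data known. Named in full are all members outside the synthetases, the 4 lowest and 4 highest synthetases at day 6, and up to 3 called genes per further list, Gars, Wars and Qars being added later.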

Additional observations from a re-analysis of the deposited data

How the results depend on the processing

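Of the 27 genes called at day 6, 24 kept the call under each of the 21 alternatives (Asns, Qars and Wars did not), and of the 14 called at day 4, 9 did. No called gene changed direction at day 4 or day 6. With 1 library left out, the genes lower at day 4 against untreated numbered 9 to 17, beside 13.9% to 25% of all genes. The higher ones numbered 0 to 1. The genes lower at day 4 against day 2 numbered 1 to 14, beside 4.85% to 15.8% of all genes, and the higher ones 0 to 1. That step was the least stable. There, 14 were lower with library totals (19.2% of all genes), 5 without a filter (5.31%) and 16 when only both groups were fitted (16.8%). In the same step 0 were higher with upper-quartile scaling, library totals, no filter or the replicate block. The replicate block gave 7 lower genes there (8.91% of all genes) and 14 at day 4 (19.2%). At day 6 it gave 24 lower (32.5%) and 3 higher. Same-numbered libraries did not deviate together (mean correlation of residuals 0.006 over 18 pairs, -0.17 to 0.29, 4 of 12 libraries closest to their own number).

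Some uncalled genes changed sign, all with values near 0 except Chac1 at day 4 (log2 fold change -0.80 ± 0.74). With upper-quartile scaling and library totals the values were -0.077 and -0.10 for Sars at day 4, and at day 6 -0.21 and -0.47 for Cars, -0.22 and -0.49 for Dars and -0.14 and -0.40 for Atf4. Upper-quartile scaling shifted the median of all genes by -0.25 at day 6 and library totals by -0.12 at day 4, and the share of all calls that were higher at day 6 went from 51.6% to 37.3% and 25.2%. With 1 library left out the ranges at day 4 were -0.034 to 0.043 for Sars, -0.17 to 0.11 for Aars, -0.14 to 0.050 for Cars, -0.13 to 0.041 for Gars, -0.16 to 0.015 for Atf4 and -1.25 to 0.81 for Chac1. At day 6 they were -0.052 to 0.14 for Cars, -0.052 to 0.18 for Dars, -0.43 to 0.12 for Atf5 and -0.30 to 0.071 for Psph. Apart from the construction of each alternative, the cause was not tested. Depth limits Chac1, Trib3, Slc7a11 and Pycr1 most, which had 24 to 84 counts in the untreated libraries together.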

Other observations

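Hars and Hars2, the cytosolic and mitochondrial histidine enzymes, have annotated spans on chromosome 18 that overlap by 4 bases. Hars was 38.9 to 61.2 CPM at day 6 beside 69.5 to 88.0 CPM untreated and fell by 0.71 on the log2 scale. Hars2 was 29.7 ± 2.40 CPM untreated and 26.4 ± 1.12 CPM at day 6 and did not pass (edgeR adjusted p = 0.167), the 1 mitochondrial synthetase that did not. The difference between these neighbours was not tested. Lars2, the mitochondrial leucine enzyme, had an untreated mean of 1480 ± 217 CPM, above every cytosolic synthetase in CPM. The day 6 mean of Lars2 was 1059 ± 271 CPM. Per gene length the untreated mean was 381 ± 55.9 RPKM, beside 32.6 ± 5.12 RPKM for Iars2, the next highest mitochondrial synthetase. Whether all reads counted for Lars2 come from its own transcript was not tested. Ddit3, the stress factor CHOP and an ATF4 partner, had 12.3 ± 2.90 CPM untreated and 14.2 ± 2.36 CPM at day 6 and did not pass at day 6 (edgeR adjusted p = 0.374).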
